A study of Mus musculus with 26 samples.

Results

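The E2F transcription factors and the RB family proteins that bind them were read by 18 probe sets of 10 genes, E2f1 to E2f8, Rb1 and Rbl1. They were chosen by name: every probe set whose only annotated gene symbol was one of the 10 was kept, out of 45037 probe sets and 17097 genes tested. E2f7 and E2f4 had 1 probe set each and each other member had 2, of which the one brighter on average over all arrays stands for the gene. Each value is a log2 intensity, so a difference of 1 is a doubling.

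The study set a mouse model of Group3 medulloblastoma, an aggressive childhood tumor of the cerebellum, against its cultured cells and treated the tumors with drugs. All 26 arrays came from C57BL/6 mice or cells of genotype Trp53-/-, Cdkn2c-/-, so the controls also lack the p53 gene and the CDK inhibitor p18Ink4c, which acts upstream of RB; there was no wild type group. The groups also labelled Myc were secondary Group3 tumors (3 arrays), Group3 tumors treated with pemetrexed (2), with gemcitabine (3) or with the 2 together (3), Group3 tumors given no drug (5), and Group3 neurospheres (7), which are floating cultures labelled medulloblastoma cells. Neurospheres not labelled Myc, described as granule neural progenitors and taken at P7 according to the design text, had 3 arrays and are called Trp53 Cdkn2c neurospheres. Pemetrexed is an antifolate and gemcitabine a nucleoside analogue, both of which interfere with DNA synthesis. No dose, treatment time, animal age or host is given for the tumors, and the labels do not say how Myc was introduced. Array titles start with dka (12 arrays) or mmm (14 arrays). Secondary tumors and Trp53 Cdkn2c neurospheres were all dka, drug-treated tumors were all mmm, and untreated tumors (3 dka, 2 mmm) and Group3 neurospheres (3 dka, 4 mmm) were split, so every comparison was made within a code.

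E2F proteins bind DNA as heterodimers with DP proteins and control genes for DNA replication and cell division. E2F1, E2F2 and E2F3 mainly activate, E2F4, E2F5 and E2F6 mainly repress, and the atypical E2F7 and E2F8 bind without a DP partner, repress E2F targets and are E2F targets themselves. RB1 and its relative p107, encoded by Rbl1, hold E2Fs inactive until cyclin-dependent kinases phosphorylate them. In the cerebellum RB and p107 restrain the division of granule neuron progenitors, the cells that expand after birth and can give rise to medulloblastoma.

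E2F genes are classic targets of E2F proteins, so the start sites of the members were searched for E2F words. RefSeq windows on GRCm38.p6, from 250 bases before to 50 bases after a start, were given for 7 of the 10 members (9 windows, with 2 each for E2f2 and E2f3); E2f4, E2f5 and Rb1 were not matched. The E2F words TTTCCCGC, TTTCGCGC, TTTGCCGC and TTTGGCGC were searched on both strands and occur in 2.26% of 32851 such windows. They occur in 4 of the 9 windows, 1 each for E2f2, E2f3, E2f7 and Rbl1. These 4 windows are shown 5′ to 3′ on the strand of the gene with the E2F word in capitals, which for E2f3 and E2f7 reads on the opposite strand. They lie at chr4:136172024-136172323 on the plus strand (E2f2), chr13:29986014-29986313 on the minus strand (E2f3), chr10:110745189-110745488 on the plus strand (E2f7) and chr2:157204485-157204784 on the minus strand (Rbl1). Each runs from upstream sequence into the first bases of the transcript.
E2f2: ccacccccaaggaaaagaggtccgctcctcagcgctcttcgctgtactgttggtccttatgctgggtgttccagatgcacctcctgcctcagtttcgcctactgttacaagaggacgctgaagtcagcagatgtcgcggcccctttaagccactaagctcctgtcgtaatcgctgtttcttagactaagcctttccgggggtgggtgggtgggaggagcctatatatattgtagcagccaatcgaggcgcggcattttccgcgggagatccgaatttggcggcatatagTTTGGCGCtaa
E2f3: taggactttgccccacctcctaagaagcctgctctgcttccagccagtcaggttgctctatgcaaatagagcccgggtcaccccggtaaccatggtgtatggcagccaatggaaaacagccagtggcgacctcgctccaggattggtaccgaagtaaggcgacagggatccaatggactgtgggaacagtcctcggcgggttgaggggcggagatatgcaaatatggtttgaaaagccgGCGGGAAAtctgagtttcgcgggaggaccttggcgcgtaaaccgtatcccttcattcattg
E2f7: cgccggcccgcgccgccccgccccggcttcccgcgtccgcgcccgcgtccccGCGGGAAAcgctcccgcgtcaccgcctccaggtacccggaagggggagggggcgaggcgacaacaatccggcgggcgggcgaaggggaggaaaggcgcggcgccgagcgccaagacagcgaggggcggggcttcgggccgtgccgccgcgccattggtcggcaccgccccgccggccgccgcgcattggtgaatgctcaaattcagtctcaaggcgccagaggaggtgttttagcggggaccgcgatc
Rbl1: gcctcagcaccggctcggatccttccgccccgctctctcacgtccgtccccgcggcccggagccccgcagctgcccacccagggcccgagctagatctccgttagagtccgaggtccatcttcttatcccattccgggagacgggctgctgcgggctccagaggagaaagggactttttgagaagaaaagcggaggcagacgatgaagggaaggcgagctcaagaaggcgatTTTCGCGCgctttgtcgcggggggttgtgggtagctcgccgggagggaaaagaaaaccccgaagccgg
Counted from the start, the word lies at bases 40 to 47 in E2f2, -11 to -4 in E2f3, -198 to -191 in E2f7 and -18 to -11 in Rbl1. The windows given for E2f1 and E2f8 surround starts 466 and 477 bases inside the annotated genes, and neither holds an E2F word. The MYC E-box CACGTG, found in 7.15% of all windows, occurred among the members only at the other E2f3 start. A match is a match of letters, and nothing on these arrays measured binding.

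Array medians lay between 4.65 and 4.82. The dka arrays spanned 2.56 to 13.9 and the mmm arrays -0.41 to 16.1, except mmm Group3 neurosphere replicate 7, which spanned 2.64 to 13.7. The mean of mmm Group3 neurosphere replicates 4 to 6 differed from the mean of the dka Group3 neurospheres with an SD over probe sets of only 0.13, against 0.56 for replicate 7. Whether a batch term was applied is not stated. Single Group3 neurosphere arrays differed from the rest of their group and code with SDs of 0.40 to 0.76. The test of the mmm minus dka difference takes the neurospheres of the 2 codes as independent arrays. Its p-values rest on that, and the close means leave it in doubt. Secondary tumor replicate 1, gemcitabine replicate 3 and mmm Group3 neurosphere replicate 4 stood apart from their groups, with array weights near 0.30. No label tells whether the arrays of a group stem from different animals or cultures, and p-values therefore measure only the spread between these arrays. The granule progenitor genes Atoh1 and Barhl1 averaged 3.68 ± 0.27 and 4.03 ± 0.14 in dka Group3 neurospheres (SD, n = 3), below the array medians, and 9.51 ± 0.49 and 9.67 ± 0.16 in Trp53 Cdkn2c neurospheres (SD, n = 3). Of 9 genes of that list, 8 were lower in Group3 neurospheres and 1, Ptch1, was higher. Some genes known as markers of other cells were also higher in the Trp53 Cdkn2c neurospheres. Against them, Group3 neurospheres were lower in the hemoglobin gene Hba-a1 by -4.80 (SE 0.44, limma adjusted p = 2.77e-07), in the pericyte gene Rgs5 by -3.30 (SE 0.49, limma adjusted p = 7.8e-05) and in the macrophage gene Lyz2 by -4.45 (SE 0.38, limma adjusted p = 1.22e-07). Group3 neurospheres were higher in the astrocyte gene Aldoc by 7.28 (SE 1.07) and in the neuron gene Gad1 by 4.55 (SE 1.22). These are single genes of their lists. Of 10 mature neuron genes 1 was higher and 2 were lower, and of 9 oligodendrocyte and astrocyte genes 1 was higher and 0 lower. Red blood cell genes had 1 of 3 lower, endothelial and pericyte genes 2 of 10, and microglia and macrophage genes 8 of 12, with 0 higher. Of all genes 13.1% were higher and 9.04% lower.

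Members were called at a limma adjusted p under 0.05 over all probe sets. Group3 neurospheres set against Trp53 Cdkn2c neurospheres had 0 of the 18 probe sets higher, where 9.77% of all probe sets were, and 6 lower, where 10.4% were. Tumors set against Group3 neurospheres under dka had 4 higher and 2 lower, where 6.53% and 7.28% of all probe sets were. The same comparison under mmm had 2 higher and 2 lower, against 8.10% and 9.35% of all. Secondary tumors against Group3 neurospheres had 5 higher and 2 lower, against 11.1% and 10.7% of all. Tumors against Trp53 Cdkn2c neurospheres had 0 higher and 2 lower, against 6.52% and 8.06% of all. Counts of 0 to 2 of 18 are near these backgrounds, and counts of 4 to 6 are above them. Most genes count with 2 probe sets, however. By brighter probe sets, dka tumors had 2 of 10 genes higher and 1 lower than Group3 neurospheres (8.21% and 9.12% of all genes). Secondary tumors had 2 and 2 (9.94% and 14.2% of all genes). Group3 against Trp53 Cdkn2c neurospheres had 0 and 4 (13.1% and 9.04% of all genes). Counts of 1 or 2 of 10 genes are near these shares. The dka comparisons share groups, chiefly the 3 Group3 neurosphere arrays, so their values stand side by side and not as independent evidence. The median difference over the 18 was -0.49 in Group3 against Trp53 Cdkn2c neurospheres (0.04 over all probe sets), 0.09 in dka tumors against neurospheres (0.01 over all), -0.06 under mmm (-0.06 over all) and 0.48 in secondary tumors against neurospheres (0.03 over all).

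**Figure D1:**
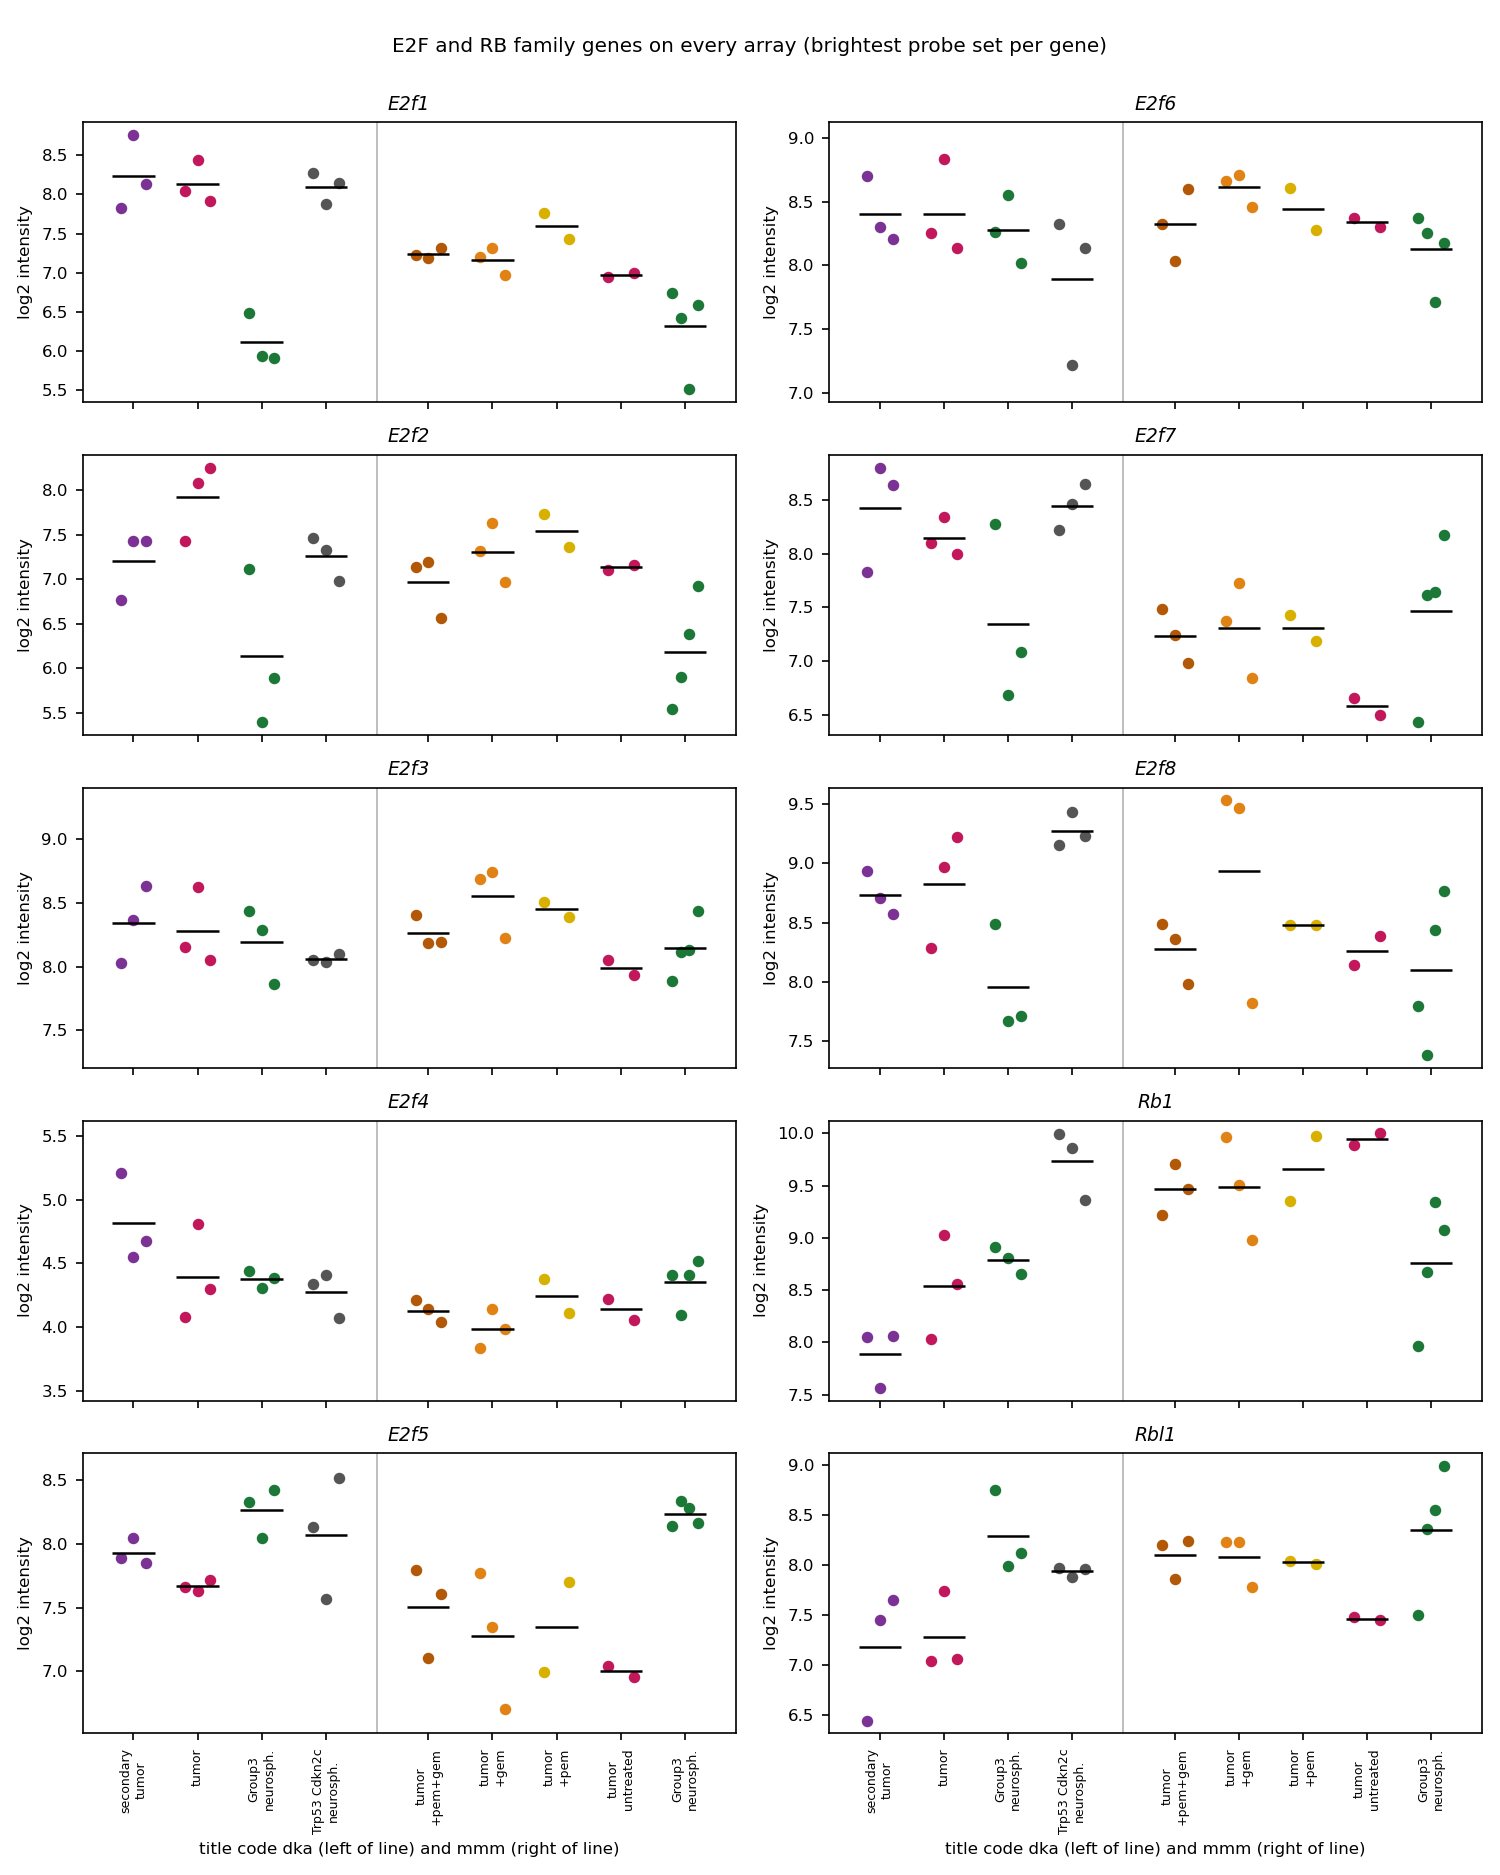
Log2 intensity of the brighter probe set of each gene on every array (points), with group means (lines), for dka groups left of the grey line and mmm groups right of it. E2f1 on the 3 dka Group3 neurosphere arrays, at 5.92 to 6.48, sits below all 9 other dka arrays, which reach down to 7.83.

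E2f1, an activator that drives entry into S phase, differed by about 4-fold under dka, where it was low in Group3 neurospheres and high in tumors and in Trp53 Cdkn2c neurospheres. Under mmm its tumor-neurosphere difference was smaller in size than those of E2f2, E2f5, E2f7, Rb1 and Rbl1 by their brighter probe sets. Its brighter probe set, 1431875_PM_a_at, read 6.48, 5.94 and 5.92 in dka Group3 neurospheres, against 8.27, 7.88 and 8.14 in Trp53 Cdkn2c neurospheres. Every Group3 neurosphere lay more than 1 log2 unit below every Trp53 Cdkn2c neurosphere. The difference was -1.98 (SE 0.27, 3.95-fold lower, limma adjusted p = 2.32e-05). The other probe set, 1417878_PM_at, gave -2.34 (SE 0.24, limma adjusted p = 9.39e-07).

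In dka tumors E2f1 read 8.05, 8.44 and 7.91, above all 3 Group3 neurospheres, and averaged 8.13 ± 0.27 against 6.11 ± 0.32 (SD, n = 3 each). The difference was 2.02 (SE 0.27, 4.05-fold, limma adjusted p = 4.88e-05), and 2.24 (SE 0.24) by the other probe set. Secondary tumors read 7.83, 8.76 and 8.13, which overlap the primary tumors and clear the neurospheres. They were higher than Group3 neurospheres by 2.12 (SE 0.27, limma adjusted p = 1.34e-05). These 3 E2f1 calls held under all 13 alternatives each, leaving out any single array included. Between tumors and Trp53 Cdkn2c neurospheres E2f1 differed by 0.04, with a 95% interval of -0.52 to 0.59, and between secondary and primary tumors by 0.10 (-0.45 to 0.66).

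Under mmm the tumor level of E2f1 was nearer to that of the cultures. Untreated tumors read 6.95 and 7.003, against 6.74, 6.42, 5.51 and 6.59 in Group3 neurospheres. Both tumors lay above all 4 neurospheres, but close to the highest of them. The difference of 0.66 (SE 0.28) did not pass with the brighter probe set (limma adjusted p = 0.117), while the other, at 6.92 and 7.11 in tumors against 6.40, 6.20, 5.24 and 6.46 in neurospheres, rose by 0.94 (SE 0.25, limma adjusted p = 0.0131). The tumor-neurosphere difference was smaller under mmm than under dka by -1.36 (SE 0.39, limma adjusted p = 0.041) and by -1.30 (SE 0.35, limma adjusted p = 0.0318) for the 2 probe sets. Of the 18 probe sets these 2 alone passed that test, both lower, where 2.99% of all probe sets were higher under mmm and 3.36% lower. For the brighter probe set the call was lost in 9 of 18 alternatives, each of which left out 1 array (dka tumor 1 or 2, dka neurosphere 2 or 3, mmm tumor 4 or 5, or mmm neurosphere 4, 5 or 7), with values between -1.63 and -1.14 and adjusted p up to 0.149 over all alternatives.

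E2f2, a second activator, rose in dka tumors. Its brighter probe set, 1436434_PM_at, read 7.43, 8.08 and 8.25 in dka tumors, against 7.12, 5.40 and 5.90 in Group3 neurospheres. All tumors lay above all neurospheres, but neurosphere replicate 1 came close to the lowest tumor. The difference was 1.79 (SE 0.37, 3.45-fold, limma adjusted p = 0.00287), and 1.29 (SE 0.30, limma adjusted p = 0.00599) with 1455790_PM_at. The call of the brighter probe set held in all 13 alternatives, with adjusted p up to 0.0246.

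Secondary tumors read 6.77, 7.43 and 7.44 for E2f2, overlapping neurosphere replicate 1, and were higher than Group3 neurospheres by 1.07 (SE 0.37, limma adjusted p = 0.0455). That call was lost without neurosphere replicate 2 (0.70, adjusted p = 0.247) and in 4 other alternatives. By 1455790_PM_at secondary tumors, at 6.95, 7.02 and 7.20, lay above all dka Group3 neurospheres, at 6.64, 5.38 and 5.92. Group3 neurospheres were below Trp53 Cdkn2c neurospheres, at 7.47, 7.33 and 6.98, by -1.12 (SE 0.37, limma adjusted p = 0.0387), with overlap. This call too was lost in 5 of 13 alternatives, including without Group3 neurosphere replicate 2 (-0.75, adjusted p = 0.211). By 1455790_PM_at Trp53 Cdkn2c neurospheres read 6.85, 6.78 and 6.80, above all Group3 neurospheres, but that probe set was not called. Under mmm, E2f2 read 7.10 and 7.16 in tumors against 5.54, 5.90, 6.38 and 6.92 in neurospheres, with no overlap but no call (0.95, SE 0.40, limma adjusted p = 0.11). Without mmm neurosphere replicate 7 it was 1.19 (adjusted p = 0.0482).

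E2f3, the third activator, did not pass in any of the 12 comparisons. Its brighter probe set, 1434564_PM_at, stayed between 7.86 and 8.75 on all 26 arrays. The 95% interval of the difference was -0.31 to 0.48 for dka tumors against Group3 neurospheres and -0.57 to 0.27 under mmm, so changes as large as those of E2f1 under dka fall outside both.

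**Figure D2:**
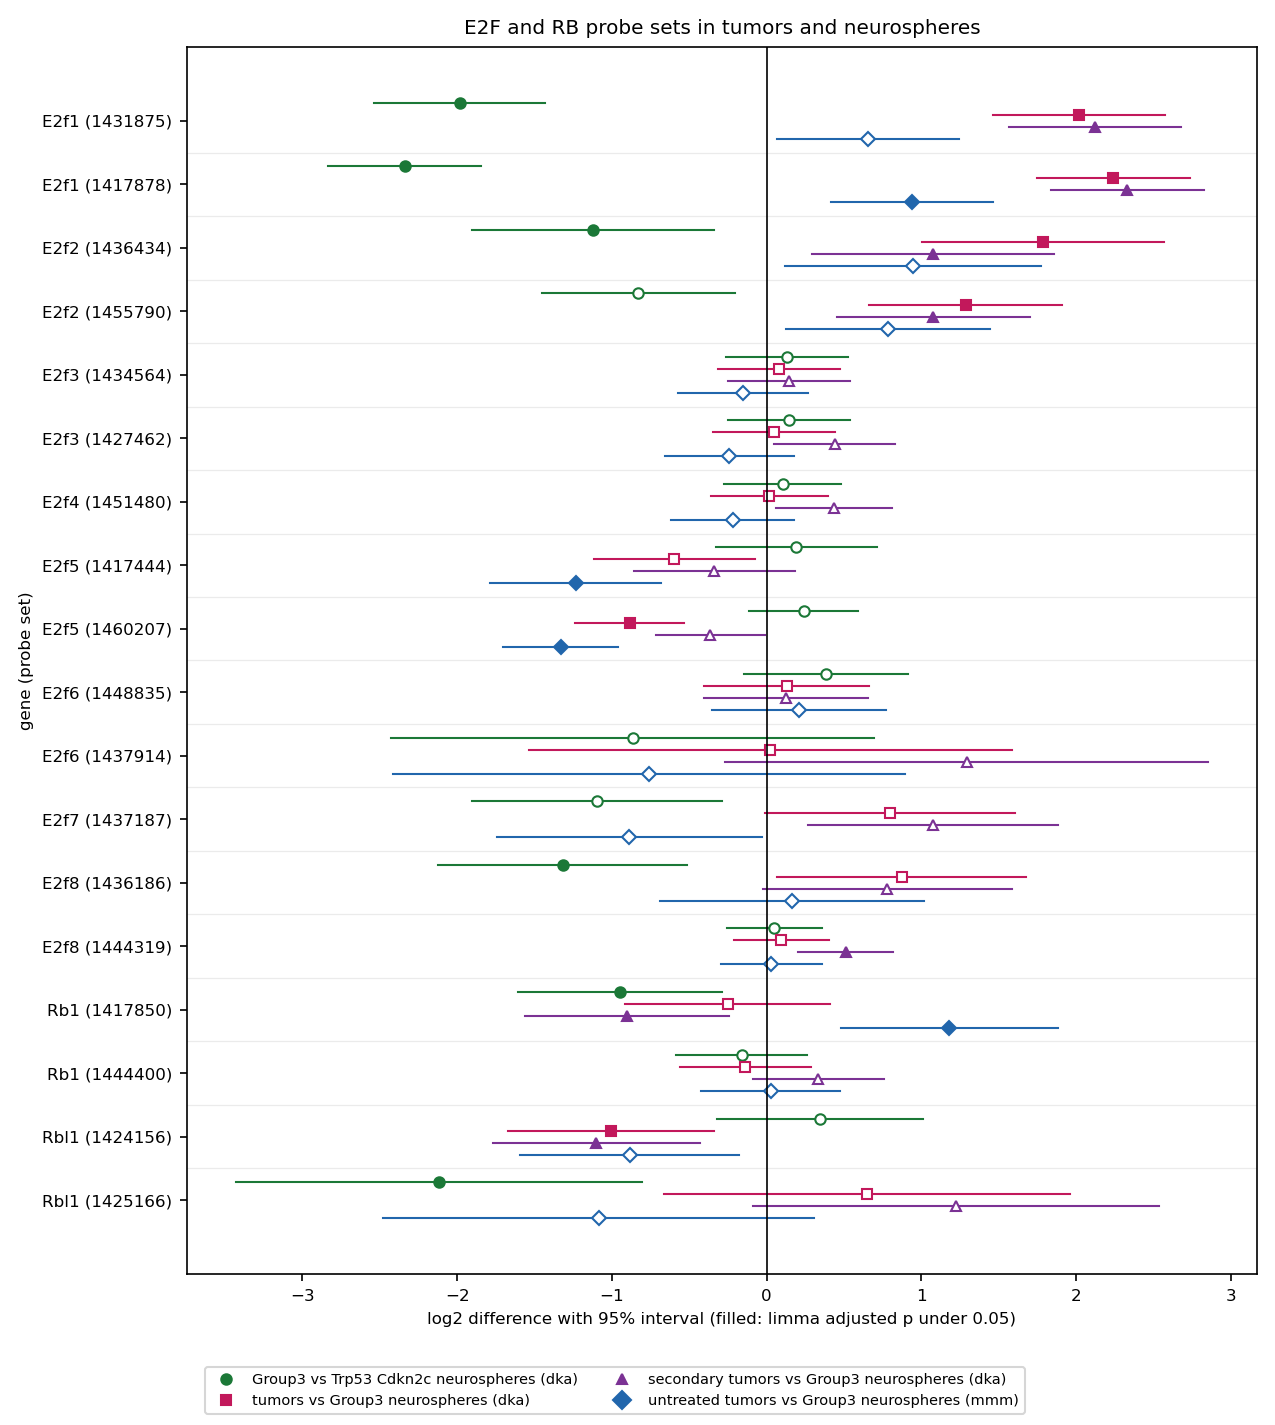
Log2 differences with 95% intervals for all 18 probe sets in 4 comparisons, filled where the limma adjusted p was under 0.05. Both E2f1 probe sets lie near -2 in Group3 against Trp53 Cdkn2c neurospheres and near 2 in dka and secondary tumors against Group3 neurospheres, and both E2f5 probe sets lie below 0 in tumors of either code.

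Among the repressors, E2f5, which carries pocket proteins to promoters in resting cells, was lower in tumors than in Group3 neurospheres under both codes. Its brighter probe set, 1417444_PM_at, read 7.04 and 6.96 in mmm tumors, against 8.15, 8.34, 8.28 and 8.17 in mmm neurospheres. Every tumor was more than 1 log2 unit below every neurosphere. The difference was -1.23 (SE 0.26, 2.35-fold lower, limma adjusted p = 0.003), and it held in all 13 alternatives, with adjusted p up to 0.0479. The other probe set, 1460207_PM_s_at, differed by -1.33 (SE 0.18, limma adjusted p = 5.37e-05).

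Under dka, E2f5 read 7.66, 7.63 and 7.72 in tumors, against 8.33, 8.05 and 8.43 in neurospheres by 1417444_PM_at, with no overlap. The 2 probe sets split at the threshold here: this one differed by -0.60 (SE 0.25, limma adjusted p = 0.128) and 1460207_PM_s_at by -0.89 (SE 0.17, limma adjusted p = 0.00128). By 1460207_PM_s_at tumors were also below Trp53 Cdkn2c neurospheres, by -0.64 (SE 0.17, limma adjusted p = 0.0128), 1 of the 2 calls of that comparison. Secondary tumors read 7.89, 8.05 and 7.85, above all 3 primary tumors, without a call (0.26, SE 0.25, limma adjusted p = 0.724). The E2f5 test of the mmm against the dka difference gave -0.64 (SE 0.36, limma adjusted p = 0.307).

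E2f4, the main E2F of resting cells, was read by a dim probe set, 1451480_PM_at, between 3.83 and 5.21, close to the array medians, and says little about the gene. E2f6, a repressor that works with Polycomb proteins and not with RB, had no call. Its brighter probe set, 1448835_PM_at, lay between 7.22 and 8.83 on all arrays. The dimmer one, 1437914_PM_at, spread much further within groups: it read 7.90, 5.41 and 5.18 in secondary tumors, and 3.72, 3.79, 6.72 and 7.30 in mmm Group3 neurospheres. The high arrays of these groups were secondary tumor replicate 1 and mmm neurosphere replicates 6 and 7, while the brighter probe set read 8.70, 8.31 and 8.21 in secondary tumors and 8.37, 8.26, 7.71 and 8.18 in mmm neurospheres. Of the 5 measured germline genes that E2F6 silences, 0 were higher and 1 lower in mmm tumors against mmm neurospheres (9.99% and 11% of all genes), and 1 was higher and 0 lower under dka (8.21% and 9.12% of all genes). Stag3, a meiotic cohesin subunit, was lower in mmm tumors by -6.42 (SE 0.86, limma adjusted p = 5.38e-05), and Tuba3a was higher in dka tumors by 1.22 (SE 0.22, limma adjusted p = 0.000855).

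**Figure D3:**
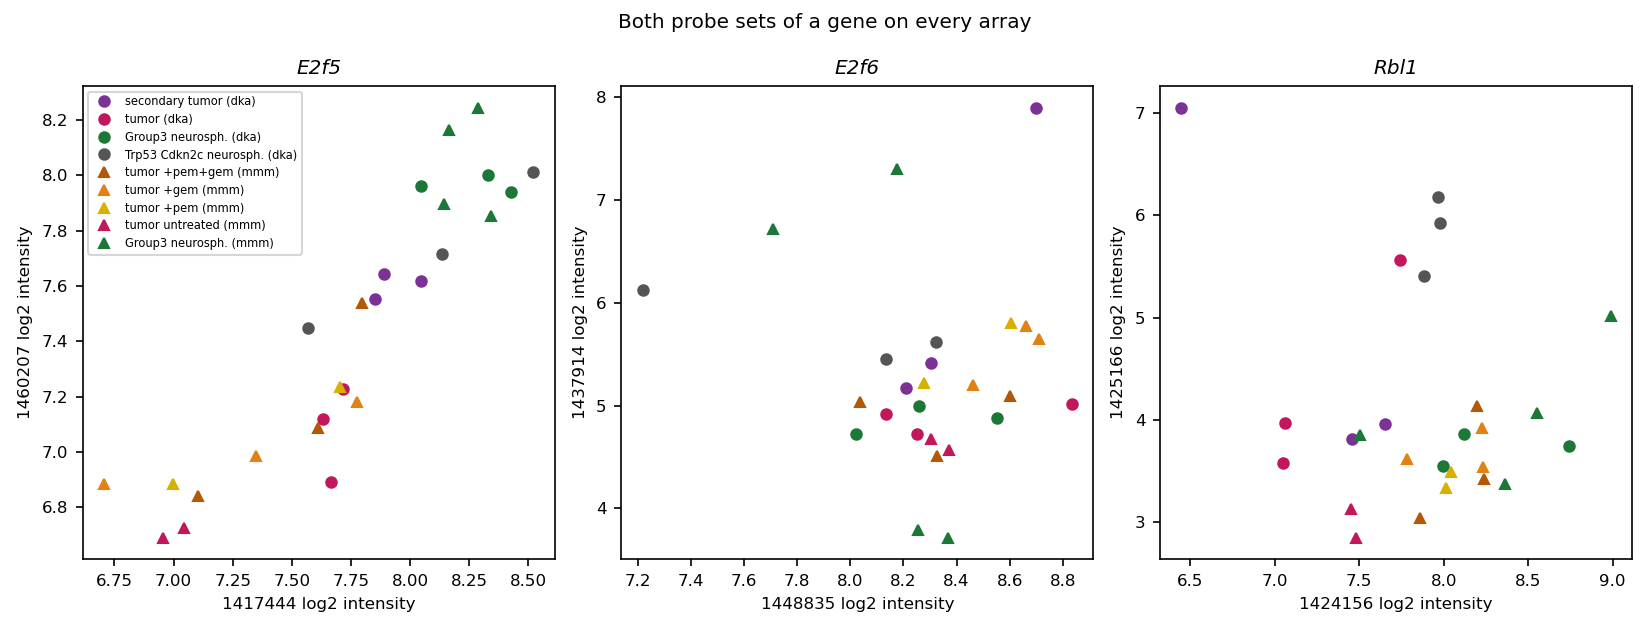
Log2 intensity of the dimmer probe set (vertical) against the brighter one (horizontal) of E2f5, E2f6 and Rbl1, 1 point per array, circles for dka and triangles for mmm. The E2f5 probe sets rise together, while on secondary tumor replicate 1 the dimmer Rbl1 probe set reaches 7.05 where the brighter one is lowest, at 6.45.

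The atypical repressors E2f7 and E2f8 were higher in Trp53 Cdkn2c neurospheres than on most arrays of Group3 neurospheres. E2f8 (1436186_PM_at) read 8.49, 7.67 and 7.71 in Group3 neurospheres, against 9.16, 9.43 and 9.23 in Trp53 Cdkn2c neurospheres. The groups did not overlap, and E2f8 differed by -1.32 (SE 0.39, 2.49-fold lower, limma adjusted p = 0.0189). The call was lost without Trp53 Cdkn2c neurosphere replicate 2 (-1.24, adjusted p = 0.0652), Group3 neurosphere replicate 2 (-1.17, 0.0739) or replicate 3 (-1.19, 0.0744).

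In dka tumors E2f8 read 8.29, 8.97 and 9.22, overlapping neurosphere replicate 1, and did not pass against Group3 neurospheres (0.87, SE 0.39, limma adjusted p = 0.153). The dim second E2f8 probe set, 1444319_PM_at, was called higher in secondary tumors than in Group3 neurospheres by 0.51 (SE 0.15, limma adjusted p = 0.0158). Its values, at 3.88 on average in secondary tumors and 3.37 in Group3 neurospheres, lie below the array medians, so that call is not read as a change of the gene.

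E2f7 (1437187_PM_at) read 8.27, 6.68 and 7.08 in dka Group3 neurospheres, against 8.22, 8.46 and 8.65 in Trp53 Cdkn2c neurospheres. Replicate 1 of the Group3 neurospheres was as high as the Trp53 Cdkn2c neurospheres, and the difference of -1.10 (SE 0.39) just missed the threshold (limma adjusted p = 0.0512). Without that array it was -1.56 (adjusted p = 0.00689). Secondary tumors, at 7.83, 8.80 and 8.64, differed from Group3 neurospheres by 1.08 (SE 0.39, limma adjusted p = 0.0524), or 1.54 (adjusted p = 0.00695) without that array.

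Primary dka tumors read 8.10, 8.34 and 7.996 for E2f7 (0.80, SE 0.39, limma adjusted p = 0.199). Under mmm the sign was opposite, with 6.66 and 6.50 in tumors against 6.43, 7.61, 7.65 and 8.17 in neurospheres. Neurosphere replicate 4 alone lay below the tumors, and the difference was -0.89 (SE 0.41, limma adjusted p = 0.15). Without it the difference was -1.23 (adjusted p = 0.0241). The mmm minus dka difference of E2f7 was -1.69 (SE 0.56, limma adjusted p = 0.0768), -2.15 (adjusted p = 0.0255) without dka neurosphere replicate 1 and -2.03 (adjusted p = 0.0213) without mmm neurosphere replicate 4.

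Rb1, the founding tumor suppressor of the family, was lower in the neurospheres labelled Myc than in those that were not under dka, and higher in tumors than in neurospheres under mmm. Its brighter probe set, 1417850_PM_at, read 8.91, 8.81 and 8.65 in dka Group3 neurospheres, against 9.996, 9.86 and 9.36 in Trp53 Cdkn2c neurospheres. The groups did not overlap, and the difference was -0.95 (SE 0.32, 1.93-fold lower, limma adjusted p = 0.0388). Leaving out any of 5 of these 6 arrays ended the call (Trp53 Cdkn2c replicate 1 or 2, or any Group3 neurosphere), with values from -1.01 to -0.82 and adjusted p from 0.0653 to 0.142.

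Tumors under dka read 8.04, 9.03 and 8.56 for Rb1, all below the Trp53 Cdkn2c neurospheres, by -1.20 (SE 0.32, limma adjusted p = 0.0135). Without tumor replicate 1 this was -0.95 (adjusted p = 0.0816), and without Trp53 Cdkn2c replicate 1 or 2 it was -1.07 (0.0622) or -1.14 (0.0524). Secondary tumors had the lowest group mean, 7.89 ± 0.28 (SD, n = 3), with 8.05, 7.57 and 8.06, and differed from Group3 neurospheres by -0.90 (SE 0.32, limma adjusted p = 0.0468). That call was lost without any one of the 6 arrays, with adjusted p from 0.0631 to 0.17, and with quantile normalization (adjusted p = 0.0553). The mean of the 2 Rb1 probe sets differed by only -0.28 (adjusted p = 0.337). Primary tumors did not differ from Group3 neurospheres beyond the spread (-0.25, 95% interval -0.91 to 0.41).

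Under mmm, Rb1 read 9.89 and 10.002 in untreated tumors, against 7.96, 8.68, 9.35 and 9.07 in Group3 neurospheres. Both tumors were above all neurospheres, by 1.18 on average (SE 0.34, 2.27-fold, limma adjusted p = 0.0188). Without either tumor the call was lost (1.24, adjusted p = 0.107, and 1.13, adjusted p = 0.148), and with the codes fitted separately the adjusted p was 0.0504. The mmm minus dka difference was 1.43 (SE 0.46, limma adjusted p = 0.0664), and 1.63 (adjusted p = 0.0317) without mmm neurosphere replicate 6. The other Rb1 probe set, 1444400_PM_at, was dim on every array. Averaging the 2 probe sets gave 0.60 (adjusted p = 0.0415) here, -0.55 (adjusted p = 0.0463) in Group3 against Trp53 Cdkn2c neurospheres and -0.75 (adjusted p = 0.0124) in dka tumors against Trp53 Cdkn2c neurospheres.

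Rbl1, whose protein p107 binds mainly E2F4 and E2F5, was lower in dka tumors by its brighter probe set, 1424156_PM_at. Tumors read 7.05, 7.74 and 7.06, against 8.74, 7.995 and 8.12 in Group3 neurospheres, without overlap. The difference was -1.005 (SE 0.32, 2.01-fold lower, limma adjusted p = 0.041). It was lost without tumor replicate 1 or 3 or neurosphere replicate 1 or 3, with adjusted p from 0.0662 to 0.174, and with the codes fitted separately (adjusted p = 0.063). The mean of the 2 Rbl1 probe sets differed by only -0.18 (adjusted p = 0.798). Secondary tumors, at 6.45, 7.46 and 7.66, were lower than Group3 neurospheres by -1.10 (SE 0.32, limma adjusted p = 0.017). This was -0.73 (adjusted p = 0.121) without secondary tumor replicate 1 and -0.87 (adjusted p = 0.0924) without neurosphere replicate 1.

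Under mmm, Rbl1 read 7.48 and 7.45 in tumors, against 7.50, 8.36, 8.55 and 8.99 in neurospheres. The tumors were just below the lowest neurosphere, replicate 4, and the difference of -0.89 (SE 0.34) did not pass (limma adjusted p = 0.079). Without replicate 4 it was -1.17 (adjusted p = 0.0112). The second Rbl1 probe set, 1425166_PM_at, read 3.75, 3.55 and 3.86 in dka Group3 neurospheres, against 5.93, 5.40 and 6.18 in Trp53 Cdkn2c neurospheres. It was the remaining call of that comparison (-2.12, SE 0.63, limma adjusted p = 0.0204), but the Group3 arrays are below the array medians, and the brighter probe set gave 0.35 (SE 0.32, limma adjusted p = 0.53). Averaging the 2 probe sets turned the Rbl1 sign in secondary tumors against Group3 neurospheres, to 0.061 (adjusted p = 0.936). In secondary tumors the second probe set read 7.05 on replicate 1 and 3.82 and 3.96 on the others.

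Secondary tumors set against primary dka tumors had 0 of 18 members called with limma, where 1.75% of all probe sets were higher and 0.535% lower, and 4 had an unadjusted p under 0.05, as had 6246 of the 45037 probe sets. No alternative called a member. The smallest p belonged to E2f5 by 1460207_PM_s_at, at 7.64, 7.62 and 7.55 in secondary tumors against 6.89, 7.12 and 7.23 in primary tumors (0.52, SE 0.17, limma adjusted p = 0.127).

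Genes that E2Fs control were more often higher than lower in dka tumors, where E2f1 and E2f2 were higher too. Of 33 measured G1/S target genes (replication factors, nucleotide synthesis and G1/S cyclins), 9 rose and 0 fell in dka tumors against Group3 neurospheres, where 8.21% of all genes rose and 9.12% fell. The list's median was 0.52 and that of all genes 0.00. Among those that rose were Mybl2 (1.55, SE 0.28, limma adjusted p = 0.000934), Ccne1 (1.28, SE 0.32, limma adjusted p = 0.0103) and the helicase subunit Mcm2 (1.27, SE 0.17, limma adjusted p = 7.57e-05). In Group3 against Trp53 Cdkn2c neurospheres, 10 of 33 fell and 0 rose (median -0.38, all genes 0.08), with Mcm6 at -1.14 (SE 0.21) and Mcm2 at -0.96 (SE 0.17). There, 13.1% of all genes rose and 9.04% fell. The list means of single arrays overlapped, at 9.16, 8.23 and 8.73 in Group3 and 8.95, 9.14 and 9.22 in Trp53 Cdkn2c neurospheres. Secondary tumors had 12 higher and 1 lower (thymidine kinase gene Tk1, named after its value was seen, at -1.42, SE 0.39) than Group3 neurospheres (median 0.58, all genes -0.01; 9.94% of all genes rose and 14.2% fell), led by Mybl2 (2.03, SE 0.28) and Cdt1 (1.67, SE 0.25).

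Under mmm, 1 of 33 target genes (Gins1, named after its value was seen, at 0.68, SE 0.17) rose and 8 fell in tumors against neurospheres (median -0.46, all genes -0.05; 9.99% of all genes rose and 11% fell), with Tk1 at -2.02 (SE 0.42, limma adjusted p = 0.0023), cyclin gene Ccna2 at -1.60 (SE 0.22, limma adjusted p = 7.56e-05) and Pola1 at -1.09 (SE 0.28, limma adjusted p = 0.0103). In the test of mmm against dka, 8 of 33 were lower and 0 higher (median -0.86, all genes -0.03; 3.63% of all genes were higher and 4.19% lower), with Ccna2 at -1.96 (SE 0.31, limma adjusted p = 0.0022). The DREAM complex of an RB family protein, E2F4 and MuvB proteins represses G2/M genes outside the cell cycle. Of 21 such genes, 0 rose and 6 fell in mmm tumors, among them Ccnb2 at -2.25 (SE 0.31) and Aurkb at -1.29 (SE 0.31). The list median was -0.73. In dka tumors 1 rose (Top2a, 0.95, SE 0.28) and 0 fell, where 8.21% of all genes rose and 9.12% fell. The list median there was 0.01.

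**Figure D4:**
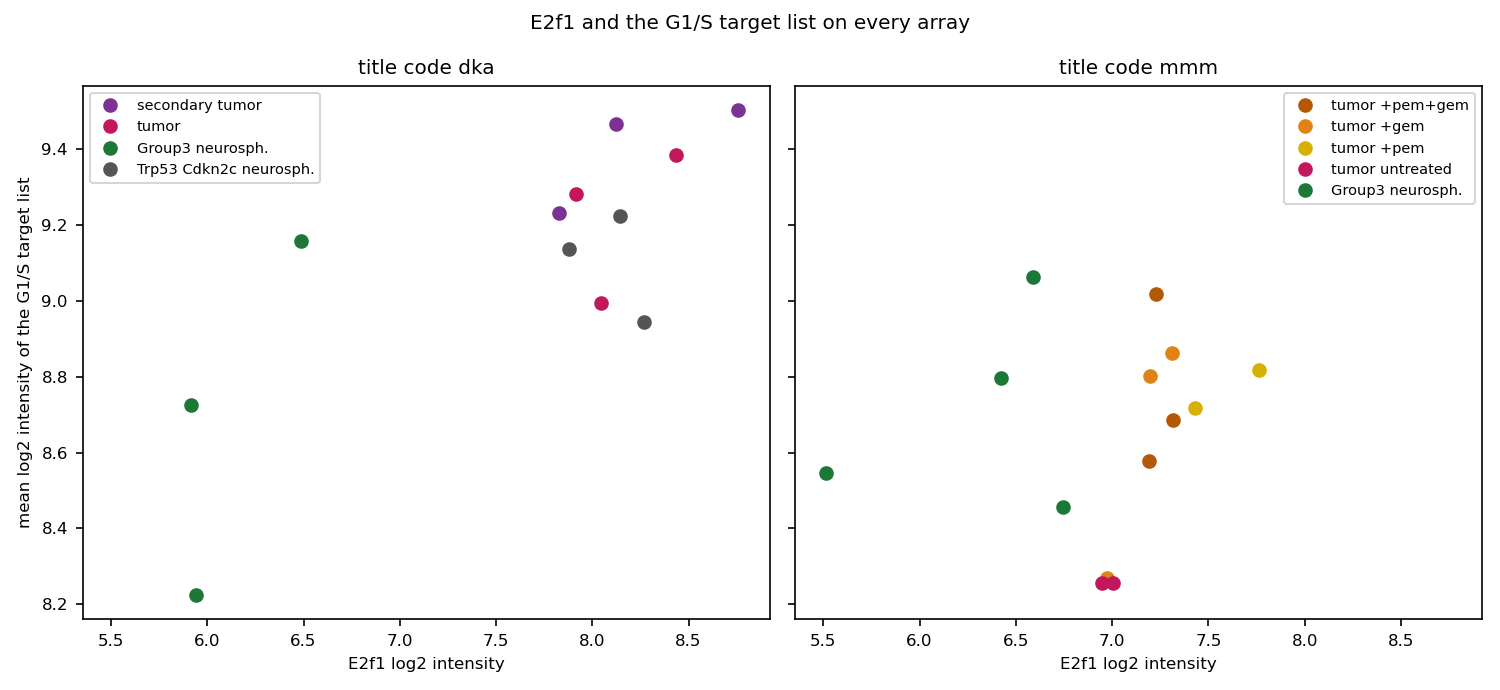
Mean log2 intensity of the 33 G1/S target genes against E2f1, 1 point per array, for dka (left) and mmm (right). The untreated mmm tumors, at 8.26 for the list, lie below all 4 mmm neurospheres, while 2 of 3 dka tumors lie above all dka neurospheres.

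Some partners and upstream genes were called. Of all genes, 8.21% rose and 9.12% fell in dka tumors, 9.99% and 11% in mmm tumors, and 13.1% and 9.04% in Group3 against Trp53 Cdkn2c neurospheres. Counts of 1 or 2 of 14 genes are near these shares, and counts of 2 of 8 or 3 of 14 are above them, on few genes. Of 8 measured genes for dimer partners and for DREAM or MuvB complexes, 2 rose and 1 fell in dka tumors against Group3 neurospheres. Mybl2, already counted among the G1/S targets, and Rbbp4 (0.68, SE 0.21, limma adjusted p = 0.037) rose. The pocket protein gene Rbl2 fell (-1.29, SE 0.23, limma adjusted p = 0.000786). None of the 8 was called under mmm. Of 14 cyclins, kinases and inhibitors upstream of RB, 1 rose and 2 fell in dka tumors. The gene that rose was Ccne1, also already counted among the G1/S targets. Cdkn2a fell by -2.87 (SE 0.76, limma adjusted p = 0.0144) and Cdkn2b by -2.17 (SE 0.72, limma adjusted p = 0.0488). Under mmm, Ccnd2 rose by 2.50 (SE 0.71, limma adjusted p = 0.0184) and Cdkn2a (-2.56, SE 0.80, limma adjusted p = 0.032) and Cdk2 (-1.39, SE 0.22, limma adjusted p = 0.000264) fell. In Group3 against Trp53 Cdkn2c neurospheres, 0 rose and 3 fell, including Cdk6 (-5.32, SE 1.03, limma adjusted p = 0.000892).

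Markers of other cell types differed between the same groups. Against Group3 neurospheres, 8.21% of all genes rose and 9.12% fell in dka tumors, 9.99% and 11% in mmm tumors, and 9.94% and 14.2% in secondary tumors. In Group3 against Trp53 Cdkn2c neurospheres 13.1% rose and 9.04% fell. Counts of 1 or 2 genes in a list of 9 or 10 are near these shares. The mean log2 level of 12 microglia and macrophage genes was 6.27 to 6.75 in dka tumors and 6.14 to 6.59 in Trp53 Cdkn2c neurospheres, against 3.87 to 4.07 in dka Group3 neurospheres, and 8.09 to 8.28 in mmm tumors against 3.85 to 4.11 in mmm Group3 neurospheres. All 12 rose in mmm tumors, 8 in dka tumors and 11 in secondary tumors (6.36 to 7.76) against Group3 neurospheres, and 8 fell in Group3 against Trp53 Cdkn2c neurospheres. The 10 mature neuron genes averaged 8.84 to 8.96 in mmm tumors against 3.76 to 5.82 in mmm neurospheres (8 rose), and 5.65 to 6.05 in dka tumors against 4.47 to 5.22 in dka neurospheres (4 rose, 1 fell). The 9 oligodendrocyte and astrocyte genes averaged 8.45 to 9.67 in mmm tumors against 4.91 to 6.32 in mmm neurospheres (7 rose), and 4.11 to 8.07 in dka tumors against 5.26 to 5.87 in dka neurospheres (1 rose, 1 fell). Of the 10 endothelial and pericyte genes, 9 rose in dka tumors and 8 each in mmm and secondary tumors, while 2, Rgs5 and Cldn5 (-2.71, SE 0.47, limma adjusted p = 0.000332), fell in Group3 against Trp53 Cdkn2c neurospheres. In that comparison 1 mature neuron gene rose, Gad1 (4.55, SE 1.22, limma adjusted p = 0.0113), and 2 fell, Rbfox3 (-6.09, SE 0.64, limma adjusted p = 1.59e-06) and Snap25 (-4.94, SE 1.02, limma adjusted p = 0.00148). Of the oligodendrocyte and astrocyte genes, 1 rose there, Aldoc (7.28, SE 1.07, limma adjusted p = 6.45e-05), and 0 fell. In secondary tumors against Group3 neurospheres 2 mature neuron genes rose and 1 fell. Of the oligodendrocyte and astrocyte genes 0 rose and 2 fell there, Aldoc (-5.82, SE 1.07) and S100b (-4.26, SE 1.07). Of the 3 measured red blood cell genes, 1 rose in dka tumors, 2 in mmm tumors and 1, Hba-a1 (4.32, SE 0.44, limma adjusted p = 1.65e-06), in secondary tumors, and 1, also Hba-a1, fell in Group3 against Trp53 Cdkn2c neurospheres. The part of these cells in the E2F and RB differences was not tested. In bulk samples, fewer cells of a type and less RNA per cell cannot be told apart.

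The drug comparisons share the 2 untreated mmm tumors, and limma called 0 of 18 members in each. Pemetrexed had 0% of all probe sets higher and 0.00444% lower, gemcitabine 0% higher and 0.00888% lower, and both drugs together 0.0400% higher and 0.0289% lower. In each of the 3, 1 member probe set had an unadjusted p under 0.05, as had 1971, 3761 and 3335 of the 45037 probe sets after pemetrexed, gemcitabine and both. The mature neuron list averaged 7.43, 7.38 and 7.40 after pemetrexed, gemcitabine and both, against 8.90 in untreated tumors. The glial list averaged 7.87, 7.72 and 7.77, against 9.06. The gemcitabine tumors were spread widely, at 7.17, 5.94 and 9.03 on the neuron list, with replicate 3 above both untreated tumors (8.96 and 8.84). Replicate 3 also read 9.59 on the glial list, and 8.27 on the G1/S list against 8.26 in both untreated tumors. The part of these lists in the drug differences was not tested. Array weights, at 0.30 for gemcitabine replicate 3, called 5 members after gemcitabine. No other alternative called any in these 3 comparisons.

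E2f7 read 7.43 and 7.19 after pemetrexed, 7.37, 7.72 and 6.84 after gemcitabine, and 7.49, 7.24 and 6.98 after both, against 6.66 and 6.50 in untreated tumors. All 8 treated tumors lay above both untreated ones, but how many of all probe sets were ordered so was not counted. The differences were 0.73 (SE 0.47, limma adjusted p = 1), 0.73 (SE 0.43, limma adjusted p = 0.693) and 0.66 (SE 0.43, limma adjusted p = 0.813), and their 95% intervals include 0. Rbl1 was arranged in the same way, at 8.04 and 8.01 after pemetrexed, 8.23, 8.23 and 7.78 after gemcitabine and 8.20, 7.86 and 8.24 after both, against 7.48 and 7.45 in untreated tumors. Its differences of 0.56, 0.62 and 0.63 (SE 0.39, 0.36 and 0.36) were not called. The brighter E2f3 probe set and the dimmer E2f5 probe set had the same order, also without a call.

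After gemcitabine, E2f3 read 8.69, 8.75 and 8.22, against 8.05 and 7.93 in untreated tumors, and E2f8 read 9.53, 9.47 and 7.82, against 8.14 and 8.39. E2f3 did not overlap (0.56, SE 0.21, limma adjusted p = 0.483), whereas replicate 3 put E2f8 on both sides of the untreated tumors (0.68, SE 0.43, limma adjusted p = 0.723). Weighting arrays, in which replicate 3 counts least of the gemcitabine tumors, gave 0.68 for E2f3 (adjusted p = 0.00321), 1.13 for E2f8 (0.00586), 0.83 for E2f7 (0.0322) and 0.73 for Rbl1 (0.0174).

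**Figure D5:**
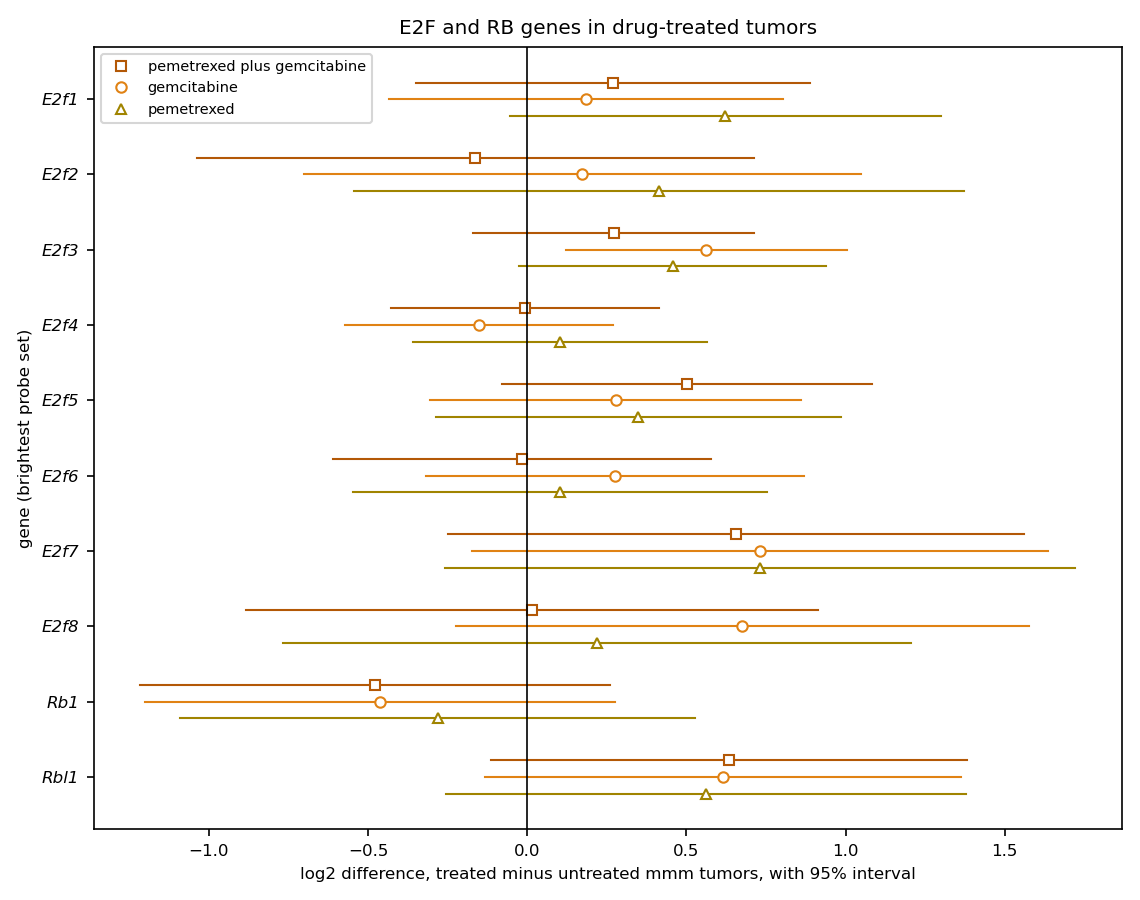
Log2 differences with 95% intervals of the brighter probe set of each gene in tumors given both drugs, gemcitabine or pemetrexed, against 2 untreated mmm tumors. E2f7 and Rbl1 lie above 0 in all 3, at 0.56 to 0.73. E2f1, E2f3, E2f5 and E2f8 also lie above 0 in all 3, at 0.02 to 0.68. No difference had a limma adjusted p under 0.05.

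E2f1 read 7.76 and 7.43 after pemetrexed, 7.20, 7.31 and 6.97 after gemcitabine and 7.23, 7.19 and 7.32 after both, against 6.95 and 7.003 in untreated tumors. Pemetrexed and combination tumors lay above the untreated ones, gemcitabine tumors overlapped them, and none of the differences was called (0.62, SE 0.32, limma adjusted p = 1; 0.18, SE 0.30, limma adjusted p = 0.934; and 0.27, SE 0.30, limma adjusted p = 0.935). The G1/S list had medians of 0.46, 0.39 and 0.47 after pemetrexed, gemcitabine and both, beside 0.05, 0.05 and 0.03 over all genes, and 0 of its 33 genes called each time.

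The combination set against gemcitabine alone had 0 of 18 members called, with 0% of all probe sets higher and 0% lower, and 0 members had an unadjusted p under 0.05, although 2467 of all probe sets did. With array weights E2f8 was lower (-1.15, adjusted p = 0.0497), and no other alternative called a member. The combination against pemetrexed alone had 0 of 18 called by limma or any alternative, with 0.00444% of all probe sets higher and 0.00222% lower, and 0 members had an unadjusted p under 0.05. The 95% interval of the E2f1 difference was -0.47 to 0.64 against gemcitabine and -0.97 to 0.27 against pemetrexed, so a 2-fold change is outside both.

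Genes with the pattern most like a member were found by the mean of its Pearson correlations over the 12 dka and the 14 mmm arrays. Arrays of a group share their level, so these values describe the groups as much as single arrays. E2f7 was closest to Clspn (mean r 0.88), Fbxo5 (0.87) and Psmc3ip (0.86), and E2f8 to Brca1 (0.83), B330016D10Rik (0.81) and Uhrf1 (0.81). E2f1 was closest to Setd6 (0.94), Srpk1 (0.91) and Elavl2 (0.91), and E2f2 to Rimkla (0.87), Tnfaip8 (0.85) and Bcar1 (0.84). E2f5 was closest to Cdk5rap2 (0.83), Rb1 to Zfp827 (0.84) and Rbl1 to Dennd4c (0.87).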

How the data were processed

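Per the labels' protocols, RNA was extracted with Trizol, amplified with NuGEN Ovation Pico WTA V2 and biotin labelled with NuGEN Encore; arrays were Affymetrix HT MG-430 PM. The deposited values are log2 intensities, which the authors made with RMA and Partek 6.6, per the submitters' processing notes; background correction, any batch term and the RMA version are not given in the sources used here. They were used as deposited. Of 45141 probe sets, 104 controls were left out; of the 45037 tested, 28898 had 1 gene symbol, 551 several and 15588 none in the annotation used here. Updating symbols through Entrez identifiers changed 0.

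A single model over the 26 arrays was fitted in R 4.3.3 using limma 3.58.1; it holds a mean per combination of group and title code (9 in all), so the spread is pooled over all groups. SE is the moderated standard error, and p-values were adjusted by Benjamini-Hochberg over all probe sets, with 0.05 as the threshold. Counts of lists use the brightest probe set of each of 17097 genes. Intervals are 95% intervals of the fit. The number of arrays limits the precision: groups had 2 to 4 arrays within a code, and only 2 untreated tumors stand behind the drug comparisons. Replicate numbers follow deposit order.

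Genes named were the 10 members, the genes most correlated with them, and up to 3 called genes with the largest differences per list (2 uncalled ones where no gene was called). Rbl2 was read as a partner. The members and lists were chosen with earlier results of these data known. Alternatives were quantile normalization, a separate fit per code, trended and robust variances, array weights, brighter probe sets only (22518 kept, with 14 of the 18 members), 1 probe set per gene, the mean of a gene's probe sets, and leaving out each array. Promoter words were matched in Python 3.11.15, and figures drawn with matplotlib 3.10.9. Some genes of the pathway are not analysed here.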

Additional observations from a re-analysis of the deposited data

Results flagged for a closer look

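The tumor-neurosphere difference of E2f1 was smaller under mmm than under dka in a test of the difference itself, by -1.36 (1431875_PM_a_at, limma adjusted p = 0.041) and -1.30 (1417878_PM_at, limma adjusted p = 0.0318). Tumors were higher than Group3 neurospheres by 0.66 and 0.94 under mmm and by 2.02 and 2.24 under dka. The neurosphere means under the codes were nearly equal, at 6.32 under mmm and 6.11 under dka for the brighter probe set, while tumors averaged 6.97 under mmm and 8.13 under dka. Over all probe sets the mean of mmm neurosphere replicates 4 to 6 differed from the dka neurosphere mean with an SD of 0.13. Single neurosphere arrays differed from the rest of their group and code with SDs of 0.40 to 0.76. The adjusted p-values take the neurospheres of the codes as independent arrays, which such close means leave in doubt. Whether a batch term was applied to the deposited values is not stated, and the part of such a term in the E2f1 difference was not tested. The call of the brighter probe set was lost in 9 of 18 alternatives, with adjusted p up to 0.149. In mmm tumors the microglia, mature neuron and glial marker lists were also higher than in dka tumors, at 8.19, 8.90 and 9.06 against 6.47, 5.90 and 6.23; their part in the E2f1 difference was not tested. In the 18 tests for a lone array, 1 per member probe set among the 4 mmm Group3 neurospheres, 0 arrays stood out, where chance gives about 1 in 20. These tests share 4 arrays and are not independent, so they do not show that no array stood apart. Over all probe sets, replicate 4 had an array weight of 0.29 and replicate 7 a narrower range of values.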

How the results depend on the processing

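The number of member probe sets called stayed within 1.5 times the reported count under the alternatives that kept all arrays, except with array weights: 9 instead of 4 in mmm tumors against neurospheres, 5 instead of 0 for gemcitabine against untreated tumors and 1 instead of 0 for both drugs against gemcitabine. Leaving out single arrays gave 2 to 6 calls for Group3 against Trp53 Cdkn2c neurospheres, 2 to 6 for mmm tumors against neurospheres, 0 to 3 for tumors against Trp53 Cdkn2c neurospheres, 3 to 6 for secondary tumors against Group3 neurospheres and 0 to 3 for the mmm minus dka difference. For dka tumors against neurospheres it gave 5 to 6. The Rbl1 difference between secondary tumors and Group3 neurospheres reversed to 0.061 when a gene's probe sets were averaged, since its second probe set differed by 1.22. That value rests on secondary tumor replicate 1: the probe set read 7.05, 3.82 and 3.96 in secondary tumors, against 3.75, 3.55 and 3.86 in dka Group3 neurospheres. Averaging also ended the calls of Rbl1 in dka tumors against neurospheres (-0.18) and of Rb1 in secondary tumors against neurospheres (-0.28). With the codes fitted separately, calls of E2f2 in Group3 against Trp53 Cdkn2c neurospheres and in secondary tumors against Group3 neurospheres, of Rbl1 in dka tumors and of Rb1 in mmm tumors were lost. The cause of the other changes was not tested. No paired analysis was possible because the labels give no replicate numbers shared between groups. Probe sets near the array medians (E2f4, 1444319_PM_at of E2f8, 1444400_PM_at of Rb1, and 1425166_PM_at of Rbl1 on most arrays) limit what can be read from them.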
